A study of Mus musculus with 8 samples.

Results

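The genes that give blood vessel endothelium its identity, its junctions, its arterial or capillary character and its response to activation were examined in whole mouse hearts. A list of 40 such genes was taken by symbol from a table of 22518 genes, which held 39 of them. The remaining gene, Rgcc, stands in the table under its older symbol 1190002H23Rik. It was matched by its identifier and is counted apart. Of the 39 members, 38 averaged 1 FPKM or more across the 8 libraries and entered the test. Selp, at lower values, did not. Hearts were taken at postnatal day 12 from C57BL/6 mice, as 4 libraries of wild type littermates and 4 libraries with the genotype PHD2/3 endothelial knockout. The promoter that drives the endothelial deletion, the alleles deleted and how many animals stand behind a library are not stated in the labels, so p-values measure only the spread between these samples. Values are FPKM (fragment counts scaled for transcript length and library size), quantile normalised across the libraries, so that levels of different genes can be compared per length but sequencing depth is unknown.

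Endothelial cells line every vessel and hold together through the adhesion molecules of their junctions, of which VE-cadherin (Cdh5) and PECAM-1 (Pecam1) are the best known. In the heart most of them are capillary cells that pass fuel to the muscle, while arterial cells are coupled by connexins and inflamed endothelium displays selectins and ICAM-1 to capture leukocytes. PHD2 and PHD3, encoded by Egln1 and Egln3, are the oxygen-dependent hydroxylases that mark hypoxia-inducible factors (HIF) for degradation.

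Of the 38 tested members, 3 rose and 8 fell in the knockout hearts. The members that rose were Ace, Clec14a and Ly6a, and those that fell were Btnl9, Cytl1, Ushbp1, Myct1, Arhgef15, Cd300lg, Jam2 and Cyyr1. A change was called at an adjusted p under 0.05 in limma's moderated test of log2(FPKM + 1), with Benjamini-Hochberg adjustment over all 11390 genes tested. Of all genes tested, 6.15% rose and 6.01% fell, against 7.89% and 21.1% of the members. The median log2 change of the members was -0.20, beside -0.01 for all genes tested. Rgcc fell as well. The values of the knockout and wild type groups did not overlap for 16 of the 38 members, beside 20.7% of all genes tested. They were higher in the knockout hearts for 4 members (10.3% of all genes) and lower for 12 (10.4% of all genes). The log2 change was below 0 for 26 of 38 members and for 51.7% of all genes. All log2 changes are knockout minus wild type on the log2(FPKM + 1) scale ± SE, which understates the change of low genes, and group levels are means ± SD with n = 4. In bulk tissue, fewer cells of a type and less RNA per cell cannot be told apart.

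Promoter sequences are shown for genes that moved in opposite directions. RefSeq promoter sequences on build GRCm38.p6 (the assembly of mm10) matched 25 of the 39 members and Rgcc. The 250 bases before the annotated start, read 5′ to 3′ on the gene's strand, are given for Ace and Clec14a, the larger rises, and for Btnl9 and Rgcc, the largest falls. They lie at chr11:105967698-105967947 (plus strand) for Ace, chr12:58269259-58269508 (minus strand) for Clec14a, chr11:49187090-49187339 (minus strand) for Btnl9 and chr14:79301636-79301885 (minus strand) for Rgcc. The gene spans used here come from another annotation (GENCODE), and each of these windows overlaps the span of its gene. The windows of Gja5, Egfl7 and Cyyr1, counted below, lie wholly within theirs. Capitals mark the core of the hypoxia response element to which HIF binds, ACGTG or GCGTG on either strand.
Ace: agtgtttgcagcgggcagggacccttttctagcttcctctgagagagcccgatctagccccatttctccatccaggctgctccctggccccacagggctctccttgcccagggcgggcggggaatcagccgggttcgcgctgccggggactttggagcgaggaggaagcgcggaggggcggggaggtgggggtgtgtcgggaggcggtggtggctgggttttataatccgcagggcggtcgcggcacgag
Clec14a: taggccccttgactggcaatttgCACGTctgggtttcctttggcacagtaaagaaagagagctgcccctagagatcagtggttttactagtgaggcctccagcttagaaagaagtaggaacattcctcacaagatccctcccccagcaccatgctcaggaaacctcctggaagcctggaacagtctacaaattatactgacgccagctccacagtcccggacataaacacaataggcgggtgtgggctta
Btnl9: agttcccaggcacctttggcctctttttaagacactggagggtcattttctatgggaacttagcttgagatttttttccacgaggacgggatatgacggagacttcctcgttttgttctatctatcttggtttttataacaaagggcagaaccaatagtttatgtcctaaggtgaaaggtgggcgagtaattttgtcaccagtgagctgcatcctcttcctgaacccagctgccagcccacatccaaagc
Rgcc: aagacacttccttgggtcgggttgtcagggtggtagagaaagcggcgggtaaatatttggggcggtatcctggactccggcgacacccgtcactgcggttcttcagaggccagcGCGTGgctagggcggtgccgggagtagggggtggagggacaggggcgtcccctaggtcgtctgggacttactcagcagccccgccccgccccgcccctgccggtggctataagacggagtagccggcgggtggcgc
Neither the Ace nor the Btnl9 window held a core, and the Clec14a and Rgcc windows each held 1. Among members, 6 of 25 windows (24.0%) held at least 1 core, whereas 57.8% of 8371 windows of tested genes did. The ETS core GGAAG, searched on both strands, was in 21 of 25 member windows (84.0%) and in 68.4% of all windows. ETS factors are general activators of endothelial genes. The KLF site CACCC was in 52.0% of member windows and 57.6% of all windows, and the NF-kappaB consensus in 12% and 8.8%. A match describes letters only, not a bound site.

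The endothelium was plainly represented in every library. In wild type hearts the highest members were Ly6c1 (174 ± 13.1 FPKM), Egfl7 (159 ± 33.5 FPKM) and Cd34 (156 ± 9.06 FPKM), whose values overlapped one another. Cdh5 (94.9 ± 1.60 FPKM) and Pecam1 (94.5 ± 5.001 FPKM) followed and also overlapped. Of the 38 steps between neighbours in this order, 31 had overlapping wild type values. The lowest members were Sele (0.883 ± 0.145 FPKM) and Selp (0.487 ± 0.261 FPKM), the selectins of activated endothelium, and the haematopoietic and endothelial factor Tal1 (2.14 ± 0.257 FPKM).

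**Figure D1:**
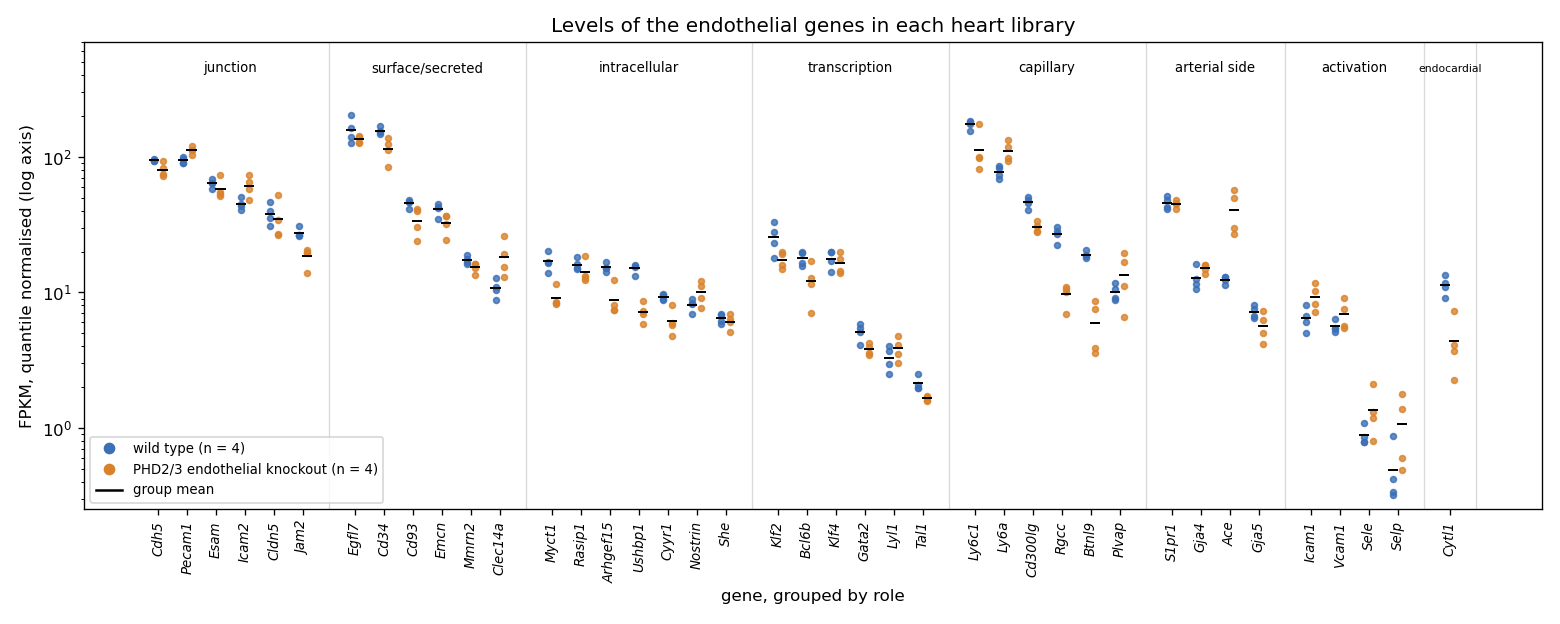
FPKM on a log axis of the 39 members and Rgcc, grouped by role; each point is 1 heart library (blue, wild type; orange, knockout) with a black line at each group mean (n = 4). Ace lies far higher in the knockout hearts (40.9 against 12.4 FPKM), and Btnl9 and Rgcc far lower, while among the junction genes Jam2 is lower (18.5 against 27.4 FPKM) and the groups of Esam and Cldn5 overlap.

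Some libraries and cell types differed in ways that bear on these values. Neither targeted gene had a lower mean in the knockout group, with Egln1 at 45.2 to 57.9 FPKM in wild type and 52.6 to 63.5 FPKM in knockout hearts (limma adjusted p = 0.442) and Egln3 at 18.0 to 38.7 and 32.6 to 52.8 FPKM (adjusted p = 0.132). A gene-level value of a whole heart does not show an exon deleted in endothelium, so the genotype rests on the labels. The summed level of 9 lung epithelial markers reached 1246 FPKM in the wild type heart numbered 4 and no more than 0.509 FPKM elsewhere, with Cldn18 and Lamp3 at 0 throughout. Atrial markers summed to 11840.1 FPKM in knockout replicate 2 and 6463 FPKM in knockout replicate 3, against 2505 to 3899 FPKM in the other 6 libraries. Nppa, which ventricular muscle also makes, carried most of these sums (8759 and 4184 FPKM in those hearts). The other atrial markers were mixed. Bmp10 (137 and 141 FPKM) and Myl4 (1338 and 688 FPKM) exceeded every wild type heart there, the highest being 74.2 and 615 FPKM. Bmp10 was uneven in both groups, at 0.0868, 49.6, 74.2 and 0.121 FPKM in wild type hearts by replicate number. In knockout hearts it was at 1.12, 137, 141 and 0 FPKM. Myl7 was at 1428 and 1246 FPKM in knockout replicates 2 and 3, against 599 to 1257 FPKM in wild type hearts. Stard10 was at 19.9 and 24.4 FPKM there and at 27.04 to 34.4 FPKM in wild type hearts. Sln was at 159 and 181 FPKM, within its wild type range of 149 to 248.8 FPKM. Each of these markers was higher there than in knockout replicates 1 and 4. Erythroid markers summed to 1210.0 to 6171 FPKM in wild type hearts and 193 to 1568 FPKM in knockout hearts. Of 10 fibroblast markers, 3 fell (30%) and 0 rose, beside 6.01% and 6.15% of all genes tested. They summed to 1378 to 1592 FPKM in wild type hearts and 1004 to 1165 FPKM in knockout hearts. The cardiomyocyte sum was 41215 to 47188 FPKM in wild type hearts and 33870 to 42574 FPKM in knockout hearts. Without wild type replicate 4, 1 member rose (Ace) and 8 fell. Without knockout replicate 2, and likewise without knockout replicate 3, 2 rose and 7 fell. In the labels, knockout replicate 4 has a library number far from the others, and without this sample 4 members rose and 10 fell. The part of the cell type markers in the changes of the members was not tested.

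Among the junction molecules of all endothelium, 1 of 6 fell and 0 rose. Jam2, a junctional adhesion molecule of the immunoglobulin family, was at 30.8, 26.5, 26.4 and 25.9 FPKM in wild type (in the order of the replicate numbers, as for all genes) and at 20.6, 19.7, 19.7 and 13.8 FPKM in knockout hearts. The groups did not overlap, and the log2 change was -0.56 ± 0.12 (adjusted p = 0.0209). The call of Jam2 was lost without wild type replicate 1 (adjusted p = 0.0531) or 2 (0.0583).

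The adherens junction gene Cdh5 was at 97.0, 93.8, 93.5 and 95.2 FPKM in wild type and at 92.9, 72.1, 83.0 and 74.6 FPKM in knockout hearts. Pecam1 was at 97.1, 90.9, 89.7 and 100.1 FPKM in wild type and at 112, 102, 112 and 119 FPKM in knockout hearts. Neither gene's groups overlapped, with every knockout value of Cdh5 below and every knockout value of Pecam1 above the wild type values. The differences were small, -0.24 ± 0.09 for Cdh5 (limma adjusted p = 0.102) and 0.24 ± 0.07 for Pecam1 (adjusted p = 0.0665), and neither passed the test. Without knockout replicate 1, Cdh5 passed (-0.31, adjusted p = 0.0308). Icam2, a constitutive ligand of leukocyte integrins, was at 40.6, 50.9, 44.7 and 43.4 FPKM in wild type and at 73.3, 65.1, 58.0 and 47.7 FPKM in knockout hearts. Only knockout replicate 4 lay within the wild type range, and the log2 change was 0.42 ± 0.13 (adjusted p = 0.0600, and 0.0127 without knockout replicate 4). Among the junction genes, the tight junction gene Cldn5 had the widest knockout range in proportion to its level, from 26.4 to 51.9 FPKM, against 30.9 to 46.3 FPKM in wild type (adjusted p = 0.637). Esam, a junction immunoglobulin, was at 63.8 ± 4.13 and 58.4 ± 10.3 FPKM (adjusted p = 0.450).

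Of the 6 surface and secreted proteins, 1 rose and 0 fell. Clec14a, a C-type lectin that marks sprouting vessels, was at 8.80, 12.7, 10.98 and 10.3 FPKM in wild type and at 13.1, 19.1, 15.5 and 25.8 FPKM in knockout hearts. All knockout values were above all wild type values, with a log2 change of 0.70 ± 0.19 (adjusted p = 0.0410). This call was lost with no filter on low values (limma adjusted p = 0.0755) and with values taken relative to Pecam1 and Cdh5 (0.0738). Those 2 genes moved oppositely (0.24 and -0.24), so this scaling left the log2 change at 0.70 and only raised its SE, to 0.21. The call was also lost without any of the 4 wild type replicates (adjusted p 0.0665 to 0.0948). It was lost as well without knockout replicate 2 (0.1001) or 3 (0.0612).

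Cd34, a sialomucin also carried by fibroblasts and blood progenitors, was at 152, 156, 147 and 168 FPKM in wild type and at 137, 112, 125 and 84.1 FPKM in knockout hearts. Its groups did not overlap, but the log2 change of -0.46 ± 0.14 missed the threshold (adjusted p = 0.0541). Cd34 passed without knockout replicate 1 (0.0225) or 4 (0.0385), and relative to Pecam1 and Cdh5 (0.0463). The last setting left its log2 change at -0.46, with an SE of 0.13. Cd93, a transmembrane receptor that binds the matrix protein multimerin-2, was at 45.5 ± 3.19 FPKM in wild type hearts and 33.9 ± 8.38 FPKM in knockout hearts (adjusted p = 0.0962, and 0.0396 without knockout replicate 1). Its ligand gene Mmrn2 was at 17.4 ± 1.10 and 15.3 ± 1.31 FPKM (adjusted p = 0.195). The venous and capillary sialomucin Emcn was at 41.0 ± 4.35 and 32.5 ± 5.82 FPKM (adjusted p = 0.129). Egfl7, a secreted factor whose gene hosts miR-126, was at 159 ± 33.5 and 135 ± 7.61 FPKM (adjusted p = 0.305).

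Of 7 intracellular adaptors, GTPase regulators and small endothelial proteins (labelled intracellular in the figures), 4 fell (57.1%) and 0 rose. Of all genes tested, 6.01% fell and 6.15% rose. This group held the most falls, the membrane proteins Myct1 and Cyyr1 among them, and its median log2 change was -0.54. Ushbp1, a PDZ-binding protein enriched in endothelium, was at 15.6, 16.0, 13.2 and 15.5 FPKM in wild type and at 8.57, 5.87, 6.92 and 7.29 FPKM in knockout hearts. Every knockout heart lay well below every wild type heart, with a log2 change of -0.98 ± 0.11 (adjusted p = 0.00105). Myct1, an endothelial membrane protein, was at 13.97, 20.3, 16.5 and 16.8 FPKM in wild type and at 11.5, 8.47, 8.41 and 8.14 FPKM in knockout hearts. The log2 change of Myct1 was -0.82 ± 0.13 (adjusted p = 0.00542), and knockout replicate 1 stood nearest to wild type. Arhgef15, a guanine nucleotide exchange factor of vascular cells, was at 15.1, 16.6, 15.1 and 14.2 FPKM in wild type and at 12.2, 7.40, 8.03 and 7.42 FPKM in knockout hearts. Its groups did not overlap either, with knockout replicate 1 again the highest of the knockout hearts (log2 change -0.76 ± 0.14, adjusted p = 0.0106). Cyyr1, a small cysteine- and tyrosine-rich membrane protein, was at 9.68, 9.52, 8.998 and 8.76 FPKM in wild type and at 5.76, 4.796, 5.91 and 8.07 FPKM in knockout hearts. For Cyyr1 knockout replicate 4 was closest to wild type (log2 change -0.54 ± 0.13, adjusted p = 0.0241). Its call was lost without any of the 4 wild type replicates (0.0523 to 0.0760) or without knockout replicate 2 (0.0570) or 3 (0.0605).

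The other members of this group did not pass the test. Rasip1, a Ras-interacting protein needed for vessel lumens, was at 16.0 ± 1.49 FPKM in wild type hearts and 14.1 ± 2.85 FPKM in knockout hearts (adjusted p = 0.362, and 0.0475 without knockout replicate 1). Nostrin, a trafficking adaptor of endothelial nitric oxide synthase, was at 8.08 ± 0.826 and 10.01 ± 1.98 FPKM (adjusted p = 0.211). The SH2 adaptor She was at 6.43 ± 0.545 and 6.08 ± 0.764 FPKM (adjusted p = 0.665).

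None of the 6 transcription factors passed limma's test after adjustment, although 4 had an unadjusted p under 0.05 and 5 had a log2 change below 0. Klf2, which is induced by blood flow, was at 27.8, 32.9, 23.1 and 17.9 FPKM in wild type and at 20.0, 15.8, 14.8 and 19.2 FPKM in knockout hearts. Wild type replicate 4, the library with lung markers, was the only wild type value inside the knockout range, and Klf2 passed without it (log2 change -0.65, adjusted p = 0.0372, against -0.50 ± 0.17 and 0.0891 with it). Gata2, a factor of endothelium, mast cells and blood progenitors, was at 5.10, 5.42, 4.08 and 5.82 FPKM in wild type and at 3.58, 3.43, 4.22 and 3.98 FPKM in knockout hearts. Without wild type replicate 3, the lowest wild type value, Gata2 passed (log2 change -0.43, adjusted p = 0.0366, against -0.34 ± 0.11 and 0.0662). Mast cell markers summed to 6.99 to 13.6 FPKM in wild type hearts and 4.16 to 7.36 FPKM in knockout hearts. Of the 4 tested, 1 fell (25%), beside 6.01% of all genes tested.

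Tal1, which is shared with blood cell precursors, was at 2.14 ± 0.257 and 1.65 ± 0.0548 FPKM with no overlap (adjusted p = 0.0991). Its relative Lyl1 was at 3.29 ± 0.687 and 3.85 ± 0.776 FPKM (adjusted p = 0.450). Bcl6b, an endothelial repressor, was at 17.9 ± 2.12 and 12.1 ± 4.14 FPKM (adjusted p = 0.103, and 0.0239 without knockout replicate 1). The flow-responsive factor Klf4 was at 17.7 ± 2.64 and 16.4 ± 2.76 FPKM (adjusted p = 0.654). Of 11 other genes tied to flow or to the KLF factors, 1 rose (9.09%) and 3 fell (27.3%), beside 6.15% and 6.01% of all genes tested. The gene that rose was Nqo1 (log2 change 0.57 ± 0.11, limma adjusted p = 0.0144). Those that fell were the adaptor Slc9a3r2 (-0.83 ± 0.10, adjusted p = 0.00168), Aqp1 and Tek, the last 2 of which also stand in other lists used here. Nos3 and Thbd, which are known KLF2 targets in endothelium, were at 14.1 ± 1.27 and 15.1 ± 2.99 FPKM and at 23.2 ± 2.34 and 22.2 ± 4.13 FPKM (adjusted p = 0.699 and 0.737), chosen after their values were seen.

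**Figure D2:**
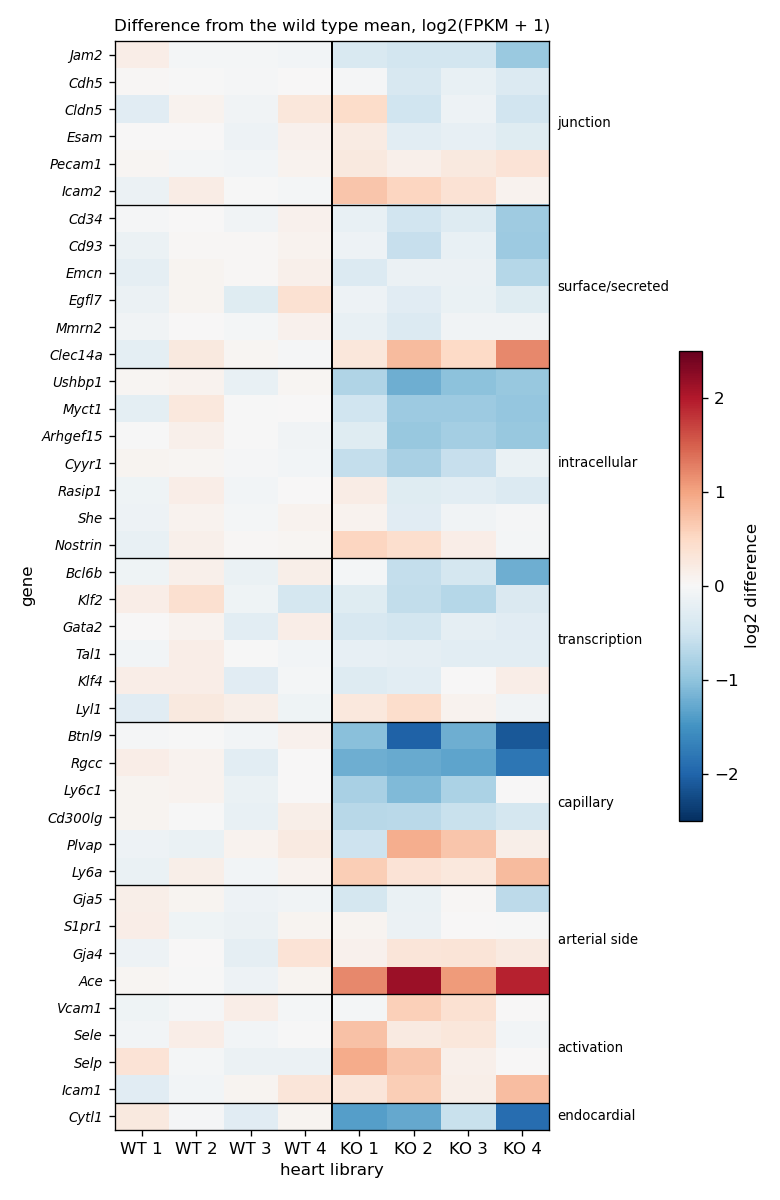
Difference of each library from the wild type mean on the log2(FPKM + 1) scale (red, higher; blue, lower) for the 39 members and Rgcc, in rows grouped by role, with 4 wild type and 4 knockout libraries in columns. Ace and Clec14a are red and Btnl9, Rgcc, Ushbp1 and Cytl1 blue in all 4 knockout columns, while Cldn5 and Plvap are red in some knockout columns and blue in others and Ly6c1 is near 0 in knockout replicate 4.

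Of 5 capillary members, 2 fell (Btnl9 and Cd300lg), 1 rose (Ly6a) and 2 did not pass the test, and with Rgcc the count was 3 of 6 lowered. Btnl9, a butyrophilin-like surface protein of capillary endothelium (mm10 chromosome 11, 49165585 to 49187159), was at 18.7, 18.7, 17.9 and 20.6 FPKM in wild type and at 8.64, 3.90, 7.59 and 3.58 FPKM in knockout hearts. It was 3.20-fold lower, with a log2 change of -1.60 ± 0.23 (adjusted p = 0.00354), and its knockout values formed a higher and a lower pair. Rgcc, a cell cycle regulator and capillary marker (chromosome 14, 79288756 to 79301645), was at 30.2, 28.4, 22.2 and 26.9 FPKM in wild type and at 10.99, 10.7, 10.1 and 6.95 FPKM in knockout hearts. It was 2.78-fold lower (log2 change -1.40 ± 0.14, adjusted p = 0.000788), and it also passed a test against a minimum change of 1.5-fold (adjusted p = 0.0423), which none of the 38 tested members did. Cd300lg, a mucin-like receptor of capillary and venular endothelium, was at 48.1, 45.7, 40.4 and 50.9 FPKM in wild type and at 28.0, 28.5, 30.9 and 33.6 FPKM in knockout hearts. The knockout values were close together and all below wild type (log2 change -0.59 ± 0.09, adjusted p = 0.00485).

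Ly6a and Ly6c1 encode small lipid-anchored surface proteins of mouse endothelium. Ly6a (Sca-1) was at 69.0, 85.4, 74.1 and 82.3 FPKM in wild type and at 119, 98.4, 92.6 and 134 FPKM in knockout hearts, without overlap (log2 change 0.50 ± 0.12, adjusted p = 0.0329). Its call was lost without any of the 4 wild type replicates (adjusted p 0.0593 to 0.0780) or with no filter on low values (0.0584). Ly6c1 was at 182, 185, 155 and 174 FPKM in wild type and at 97.9, 80.7, 99.9 and 174 FPKM in knockout hearts. Knockout replicate 4 had the wild type level of Ly6c1 and the other knockout hearts did not, so that the log2 change was -0.67 ± 0.20 (adjusted p = 0.0564) with it and -0.90 (adjusted p = 0.00123) without it. Both genes have close paralogs between which the authors' quantification could have divided reads, so their values are uncertain.

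Plvap, which forms the diaphragms of fenestrae and caveolae and is also high in endocardium, was at 9.01, 8.73, 10.6 and 11.8 FPKM in wild type and at 6.63, 19.5, 16.7 and 11.2 FPKM in knockout hearts. It was highest in knockout replicates 2 and 3 and lowest in knockout replicate 1 (log2 change 0.30 ± 0.27, adjusted p = 0.493). Among 15 other capillary genes, 8 fell (53.3%) and 2 rose (13.3%), beside 6.01% and 6.15% of all genes tested. Their median log2 change was -1.07. This list was chosen with earlier results of these data known, so it is no independent test of capillary genes. The 4 with the smallest p were Aqp7 (-2.36 ± 0.12), the transcription factor Tcf15 (-1.72 ± 0.14), Car4 (-3.42 ± 0.30) and the nucleoside transporter Slc28a2 (-1.57 ± 0.17), with adjusted p of 3.54e-05 to 0.00105. The 2 that rose, chosen after their values were seen, were the retinol-binding protein Rbp7 (0.80 ± 0.12, adjusted p = 0.00395) and the fatty acid-binding protein Fabp5 (0.66 ± 0.11, adjusted p = 0.00628).

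On the arterial side, 1 of 4 members rose and 0 fell. Ace, the angiotensin-converting enzyme of the endothelial surface (mm10 chromosome 11, 105967945 to 105989964), was at 12.9, 12.3, 11.2 and 13.01 FPKM in wild type and at 29.8, 57.4, 26.9 and 49.3 FPKM in knockout hearts. Every knockout value lay far above every wild type value, and Ace was 3.30-fold higher on average (log2 change 1.58 ± 0.22, adjusted p = 0.00302). The call held without each library in turn, and wild type replicate 4, with its lung markers, had 13.01 FPKM of Ace, beside 12.9 FPKM in wild type replicate 1. An antisense gene overlaps Ace, and whether reads were counted by strand is not stated in the labels, so reads of the 2 genes cannot be told apart.

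The arterial connexins did not pass the test. Gja5 (connexin 40), which atrial muscle also makes, was at 8.07, 7.59, 6.44 and 6.65 FPKM in wild type and at 5.03, 6.26, 7.29 and 4.18 FPKM in knockout hearts (log2 change -0.31 ± 0.14, adjusted p = 0.182). Its groups overlapped through knockout replicate 3, the highest of the knockout hearts. Gja4 (connexin 37) was at 11.4, 12.6, 10.5 and 16.2 FPKM in wild type and at 13.6, 15.8, 15.9 and 14.9 FPKM in knockout hearts (log2 change 0.24 ± 0.12, adjusted p = 0.210). S1pr1, the sphingosine-1-phosphate receptor that stabilises junctions, was at 45.8 ± 4.81 and 45.0 ± 2.92 FPKM, the smallest change of the 38 tested members (log2 change -0.02 ± 0.09, adjusted p = 0.8997). Of 16 other arterial genes, 3 rose (18.8%) and 2 fell (12.5%), beside 6.15% and 6.01% of all genes tested. The 4 with the smallest p were the netrin receptor Unc5b (0.61 ± 0.10), Stmn2 (0.77 ± 0.17), the Notch target Hey1 (0.50 ± 0.13) and, falling, the lymphatic growth factor Vegfc (-0.33 ± 0.08), with adjusted p of 0.00668 to 0.0378. Efnb2, the arterial ephrin ligand and the other gene that fell, was named after its values were seen (-0.32 ± 0.09, adjusted p = 0.0499). Of 9 tested venous genes, 1 rose (Vwf, 11.1%) and 5 fell (55.6%), beside the same shares of all genes. The largest of these falls was that of the apelin receptor Aplnr (-2.47 ± 0.41, adjusted p = 0.00830), and the smallest p was that of the carbonic anhydrase-related Car8 (-0.93 ± 0.11, adjusted p = 0.00183). The venous regulator Nr2f2 was at 4.24 ± 0.341 and 4.05 ± 0.5001 FPKM (adjusted p = 0.731), chosen after its values were seen.

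The inducible adhesion molecules were low in both groups, and 0 of 3 tested members passed limma's test, with 1 at an unadjusted p under 0.05. Icam1, which arrests leukocytes, was at 5.04, 6.03, 6.74 and 8.12 FPKM in wild type and at 8.17, 10.3, 7.17 and 11.6 FPKM in knockout hearts. Its groups overlapped through knockout replicate 3 and wild type replicate 4 (log2 change 0.46 ± 0.16, adjusted p = 0.0917). Vcam1, the ligand of the integrin VLA-4, was at 5.13, 5.50, 6.41 and 5.39 FPKM in wild type and at 5.41, 9.01, 7.53 and 5.65 FPKM in knockout hearts (0.24 ± 0.14, adjusted p = 0.301). E-selectin (Sele) was at 0.787, 1.09, 0.789 and 0.860 FPKM in wild type and at 2.10, 1.19, 1.298 and 0.802 FPKM in knockout hearts (0.29 ± 0.16, adjusted p = 0.236). P-selectin (Selp), which platelets also carry, was not tested and stood at 0.321 to 0.872 FPKM in wild type hearts and 0.489 to 1.79 FPKM in knockout hearts. The summed level of all 4 genes was 11.8 to 14.7 FPKM in wild type hearts and 16.6 to 21.9 FPKM in knockout hearts, without overlap. This sum is a description, made up mostly of Icam1 and Vcam1, and each of the 4 genes alone overlapped between the groups. Of 17 NF-kappaB and cytokine-induced genes, 10 were tested. Of these 1 rose (10%) and 1 fell (10%), beside 6.15% and 6.01% of all genes tested. The chemokine Cx3cl1 rose (0.59 ± 0.12, limma adjusted p = 0.0124), and the interferon regulatory factor Irf1 fell (-0.86 ± 0.12, adjusted p = 0.00256). The rest were too low to test. Among them Cxcl10, chosen after its values were seen, was at 0.248 to 0.453 FPKM in wild type and 0.824 to 2.22 FPKM in knockout hearts. The other untested genes overlapped between the groups, Il6, Madcam1 and Ptgs2 with higher and Cxcl1 and Cxcl2 with lower knockout means. Macrophage and myeloid markers summed to 146 to 171 FPKM in wild type hearts and 175 to 193 FPKM in knockout hearts, with 1 of 10 tested raised.

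Cytl1, a secreted cytokine-like protein of endocardium, was at 13.5, 10.99, 9.13 and 11.8 FPKM in wild type and at 3.69, 4.05, 7.34 and 2.27 FPKM in knockout hearts. All knockout values were below wild type, with replicate 3 the nearest (log2 change -1.28 ± 0.25, adjusted p = 0.0120). Of 6 tested endocardial markers, 1 rose (16.7%) and 0 fell, beside 6.15% and 6.01% of all genes tested. It was Vwf, which other endothelium also makes.

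**Figure D3:**
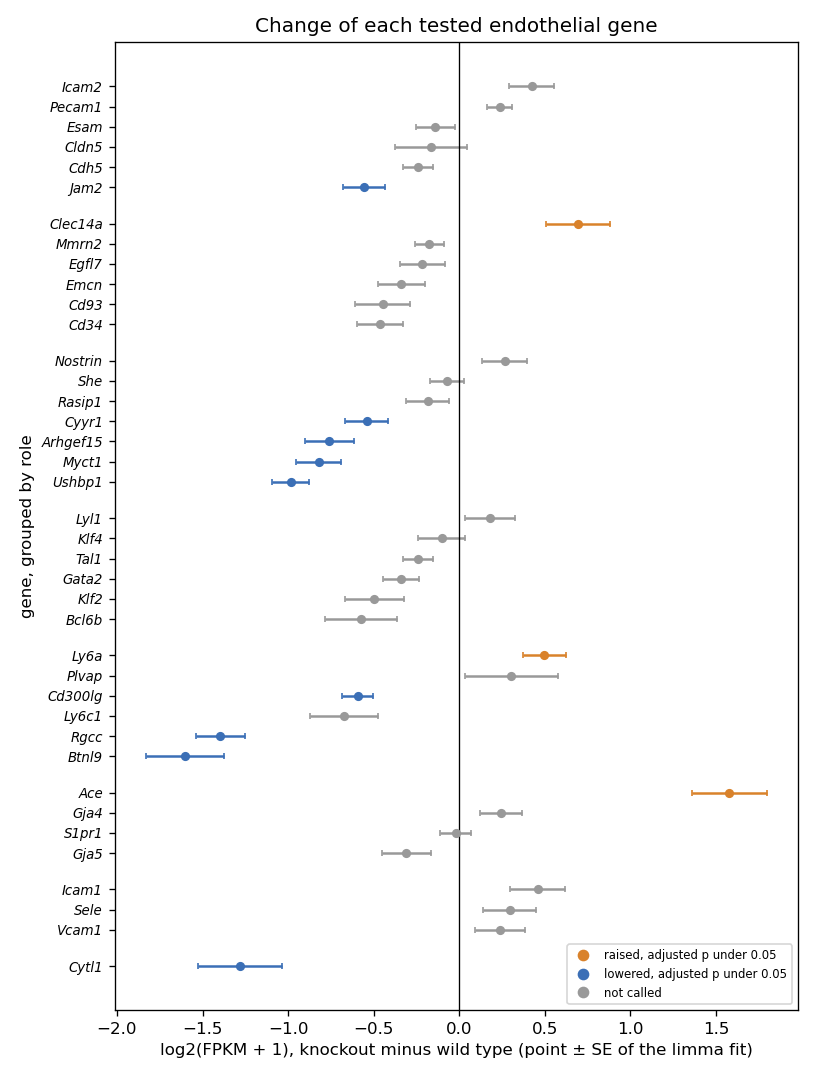
Log2(FPKM + 1) change, knockout minus wild type, of the 38 tested members and Rgcc, in rows grouped by role; points are estimates and bars the SE of the limma fit (4 against 4), in orange for genes raised, blue for genes lowered and grey for those not called. The largest changes are Btnl9 at -1.60 and Ace at 1.58, and all 6 transcription factors are grey.

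Whether members changed unequally within the same hearts was asked with 15 ratios between genes, each compared on the log2(FPKM + 1) scale with a two-sided exact permutation test. Its 70 splits allow a smallest p of 0.0286. After Benjamini-Hochberg adjustment over the 15 ratios none passed, and 5 had the smallest exact p of 0.0286 (adjusted p = 0.0857). With this smallest p, a ratio could pass only if most of the 15 reached it, so the adjusted test could not call a ratio by itself. The Ly6a to Ly6c1 FPKM ratio was 0.380, 0.463, 0.477 and 0.473 in wild type and 1.21, 1.22, 0.927 and 0.770 in knockout hearts. All 4 knockout hearts, replicate 4 included, lay above wild type in this ratio. The Btnl9 to Cdh5 ratio was 0.192, 0.200, 0.192 and 0.216 in wild type and 0.0930, 0.0541, 0.0914 and 0.0480 in knockout hearts. The other ratios without overlap were those of Rgcc and Ushbp1 to Cdh5 and of Cytl1 to Emcn, all lower in knockout hearts. Their differences of the log2(FPKM + 1) ratio were -1.16, -0.75 and -0.94. Cdh5 and Emcn had log2 changes of -0.24 and -0.34 themselves, though neither was called. Ratios to them therefore show smaller falls and larger rises than the genes alone.

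The remaining ratios overlapped between the groups. The Gja5 to Gja4 ratio was 0.706, 0.604, 0.612 and 0.411 in wild type and 0.370, 0.396, 0.459 and 0.281 in knockout hearts (difference -0.55, exact p = 0.0571, adjusted p = 0.0952). Tal1 to Lyl1 (-0.42), Cd300lg to Cdh5 (-0.36) and Gja4 to Cdh5 (0.48) had the same exact p of 0.0571. The ratio of Icam1 to the constitutive Icam2 differed by 0.04 (exact p = 0.886), that of Vcam1 to Icam2 by -0.18 (0.514) and that of Klf4 to Klf2 by 0.39 (0.143). Cldn5, Emcn and Plvap relative to Cdh5 differed by 0.07 (0.800), -0.10 (0.6) and 0.54 (0.229).

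**Figure D4:**
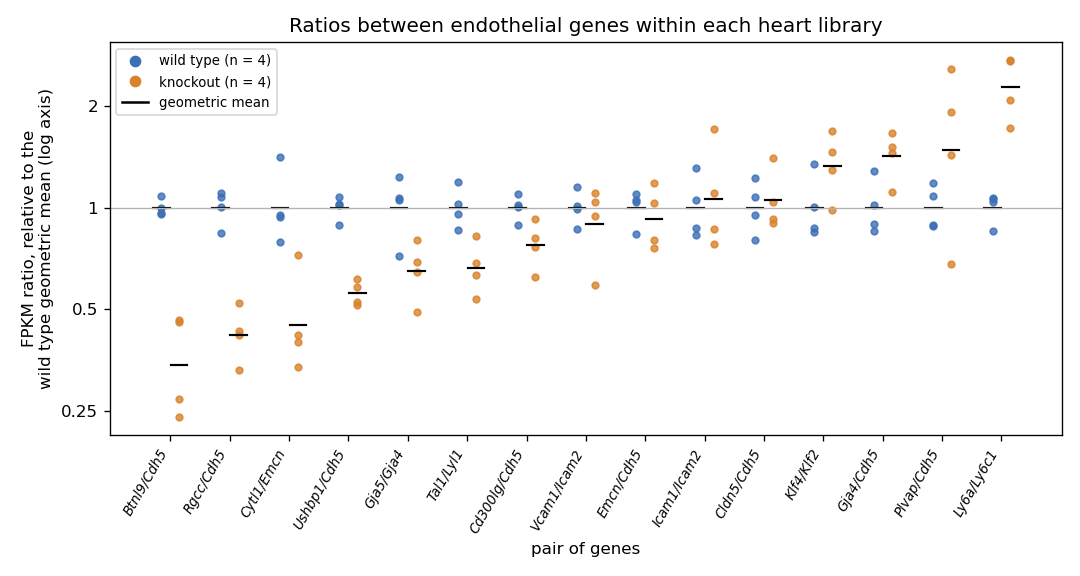
FPKM ratio of 15 pairs of genes in each library, divided by the wild type geometric mean of that pair, on a log axis; points are libraries (blue, wild type; orange, knockout) and black lines geometric means of 4. Ly6a/Ly6c1 lies above and Btnl9/Cdh5, Rgcc/Cdh5, Ushbp1/Cdh5 and Cytl1/Emcn lie below all wild type points in every knockout heart.

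The knockout hearts differed among themselves more than the wild type hearts did. Over the 38 members the median SD on the log2(FPKM + 1) scale was 0.13 in wild type and 0.26 in knockout hearts, and 30 members (78.9%) had the larger SD in the knockout group. Over all genes tested the medians were 0.12 and 0.16, and 66.7% had the larger SD in the knockout group. Knockout replicate 1 was the nearest of the knockout hearts to the wild type mean for 15 of 38 members (39.5%) and knockout replicate 2 for 1 (2.63%), beside 34.1% and 23.2% of all genes. Of the 8 members that fell, knockout replicate 1 was the nearest for 5. Without this library 13 members fell, the added ones being Bcl6b, Cd34, Cd93, Cdh5 and Rasip1.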

How the data were processed

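RNA of whole hearts was sequenced in 8 TruSeq libraries, per the labels' protocols. The submitters' processing notes name TopHat2, Cufflinks and mm10. Tool versions, the annotation and the strandedness are not given in the sources read. The table does not name its unit. The values the authors deposited were read as FPKM, the unit of Cufflinks, quantile normalised across libraries before deposit, since the 39 highest ranks hold identical values in all columns. Depth and counting error cannot be recovered.

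Groups follow the labels. Genes averaging 1 FPKM or more were tested on log2(FPKM + 1) with limma 3.58.1 in R 4.3.3 (lmFit, then eBayes with trend and robust set; genotype alone in the model). Calls were made at a Benjamini-Hochberg adjusted p under 0.05. Ratios used exact permutation tests in Python 3.11.15. The tests were tested on simulated data. Positions come from GENCODE M21, in which 13 of the 40 genes overlap another annotated gene, so that reads of the overlap may be shared. The members and lists were chosen with earlier results of these data known. All 40 genes are named, and of each other list at most 4 called genes with the smallest p. The targeted genes, all 6 atrial markers and the lung markers Cldn18 and Lamp3 are named besides. Others are said to be chosen after their values were seen. Alternatives changed the pseudocount, filter, scaling, variance model, sample weights, threshold and replicate block, or left out samples.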

Additional observations from a re-analysis of the deposited data

Results flagged for a closer look

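Within groups of 4, 5 values stood apart from the rest of their group by a gap that took most of the group's range (Dixon's test at the 95% level). With 80 groups examined, chance flags about 1 group in 20. Knockout replicate 1 was the high value of Myct1, Arhgef15 and Rasip1. Myct1 was at 11.5 FPKM there against 8.14 to 8.47 FPKM in the other knockout hearts. Arhgef15 was at 12.2 against 7.40 to 8.03 FPKM, and Rasip1 at 18.4 against 12.3 to 13.2 FPKM. Jam2 was high in wild type replicate 1, at 30.8 against 25.9 to 26.5 FPKM, and low in knockout replicate 4, at 13.8 against 19.7 to 20.6 FPKM.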

How the results depend on the processing

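The 3 raised and 8 lowered members numbered the same with a pseudocount of 0.1 or 5, a filter at a mean of 5 FPKM, median centring, and no trend or robust option. Without a filter 1 member rose, with array weights 6 rose, and against a minimum change of 1.5-fold 0 rose and 0 fell, with 37 genes called in all (fewer genes pass because the null is wider by construction). With a single sample left out, 1 to 4 members rose, 6 to 13 fell and 575 to 1820 genes were called in all. The low count of raised members, 1, came without each wild type replicate, and 575 genes without wild type replicate 2; 13 lowered members and 1820 genes came without knockout replicate 1. Without both replicates 4, 2 rose and 10 fell. With the replicate number as a block 613 genes were called, 2 members rose and 7 fell. The labels do not say that a number marks a shared litter. Deviations of same-numbered samples correlated at -0.23, 0.01, 0.10 and -0.10, beside -0.19 to 0.27 for samples of different numbers. With 4 samples per group, these correlations cannot tell whether same-numbered samples share more than a number. Not every sample correlated best with its own number. In the block fit Ly6a (adjusted p = 0.0681) and Cyyr1 (0.0705) lost their calls. None of the 15 ratios passed after adjustment under any alternative run; their smallest exact p was 0.125 with the block and 0.1 without both replicates 4, so no ratio could pass there. No member reversed direction where it was called. The cause of these shifts was not tested. Depth is unknown and sets no stated limit; 4 samples per group limit the precision.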

Other observations

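Marker lists of other cells that share vessels or blood with these genes gave the following values. Of all genes tested, 6.15% rose and 6.01% fell. Of 28 other tested pan-endothelial genes, 5 rose (17.9%) and 7 fell (25%), with a median log2 change of -0.13, beside -0.20 for the 38 members. Of 6 tested lymphatic markers, 0 rose and 1 fell (Ccl21a); the defining genes Prox1 and Lyve1 were at 4.54 ± 0.876 and 5.57 ± 0.982 FPKM and at 6.38 ± 0.824 and 7.27 ± 2.18 FPKM in wild type and knockout hearts. Of 10 smooth muscle and pericyte markers, 3 rose (Notch3, Tagln and Des) and 0 fell. Platelet markers summed to 19.5 to 28.7 FPKM in wild type hearts and 14.03 to 22.5 FPKM in knockout hearts. Proliferation genes, of which 0 of 8 passed limma's test and 0 had an unadjusted p under 0.05, summed to 17.0 FPKM in knockout replicate 4 and 131 FPKM in knockout replicate 1, with wild type hearts at 54.0 to 77.6 FPKM.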
